A study of Bos taurus with 11 samples.

Results

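Platelet-derived growth factor (PDGF) receptors and surface and matrix genes of mesenchymal cells were examined in the endometrium, the mucosal lining of the uterus, of dairy cows soon after calving. The 10 genes were the receptors PDGFRA and PDGFRB, the ligands PDGFA and PDGFB, and VIM, THY1, PDPN, DPT, MFAP5 and SDC2. Probe sets, the groups of short probes that measure 1 transcript on an Affymetrix array, were taken where the platform annotation gave exactly 1 of these symbols. That left 8 genes on 11 probe sets, of 9155 named genes and 24016 probe sets on the array. PDGFA and PDGFB had no such probe set and were not analysed here. Where a gene had several, the one with the highest average signal stands for the gene and is called its main probe set.

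The 11 arrays came from 11 multiparous Holstein-Friesian cows, 6 in severe and 5 in mild negative energy balance, a state in which a cow spends more energy than it takes in. Both regimes began on day 2 after calving, and tissue was collected at slaughter 14 ± 0.4 days after calving, the error being as the labels give it. Severe cows were milked 3 times a day on a daily ration of 25 kg silage plus 4 kg concentrate. Mild cows ate silage without restriction with 8 kg of concentrate a day and were milked 1 time a day. Mean parity was 4.7 over the study, and cows had been allocated to the regimes at random within blocks. Feeding and milking differed together, so the effects of these parts of the regimes cannot be told apart.

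PDGFs are dimeric growth factors that bind a pair of related receptor tyrosine kinases. PDGFRA binds PDGF-A, PDGF-B and PDGF-C chains and is carried by many fibroblasts, while PDGFRB binds PDGF-B and PDGF-D and is carried by fibroblasts and by pericytes, the mural cells of small vessels. In the endometrium such cells form the stroma around the glands, which is rebuilt in the weeks after calving.

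Values are log2 signals after RMA, a method that corrects background, equalises the distributions of the arrays and summarises probes, so that a difference of 1 is a 2-fold difference. The median was 6.20 on each array, and pairs of arrays correlated at 0.948 to 0.991. Signals under 5.52, below which 40% of probe sets averaged, are called dim, since differences can be compressed there. Stromal genes were present on the arrays. The collagen genes COL1A1 and COL3A1 and the proteoglycans DCN and LUM averaged 13.21, 13.98, 13.53 and 12.18 over all cows. These genes were picked after their values were seen, and other stromal genes were lower, with THY1 at 7.97 and PDGFRB at 5.75. Epithelial genes were present as well, with EPCAM at 10.33 and KRT18 at 8.94, while KRT8 was dim at 4.35. Severe and mild cows were compared by limma, a linear model with shared variance estimates across probe sets, and p-values were adjusted by Benjamini-Hochberg across the whole array.

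None of the 8 genes passed that adjustment, and neither did any other probe set (0 of 24016, the smallest limma adjusted p being 0.177). PDGFRA had the largest positive difference of the 8, at 0.97 on the log2 scale, SDC2 the largest negative one, at -0.998, and PDPN a smaller positive one, at 0.57. These were the 3 genes of 8 with an unadjusted limma p under 0.05, a level reached by 3085 of all probe sets (12.8%) and, on main probe sets as used for the 8, by 1457 of the 9155 named genes (15.9%). By direction, 2 were higher in severe cows and 1 was lower, where 774 of those 1457 named genes were higher. Over all probe sets, dim and unnamed ones included, 6.97% were higher and 5.88% lower at that level. Without mild 2 and severe 5, whose arrays stood farthest from the rest, 2 of the 8 genes reached that level, and PDPN no longer did. Over all 8 genes 5 differences were positive and 3 negative, with a median of 0.15, against a median of -0.00378 over the 9155 named genes. The values of severe and mild cows overlapped for all 8 genes, as for most of the array, where 257 probe sets (1.07%) had no overlap. On main probe sets 109 of the 9155 named genes had none.

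**Figure D1:**
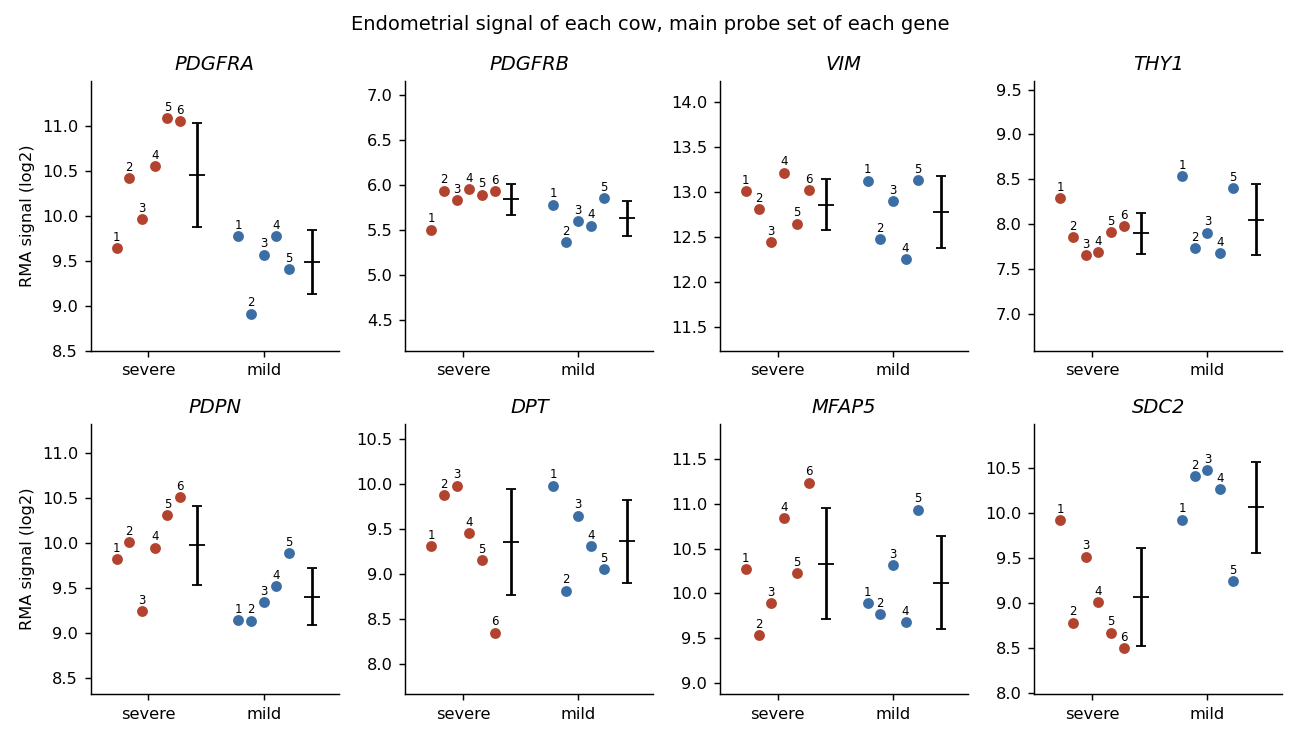
RMA signal (log2) of each cow for the main probe set of each gene, severe cows (red, n = 6) left of mild cows (blue, n = 5), with cow numbers beside the points. Black bars give mean and SD, and every panel spans 3 log2 units. PDGFRA lay above 9.77, the highest mild cow, in 5 severe cows, and SDC2 lay below 9.25, the lowest mild cow, in 4 severe cows.

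PDGFRA, the receptor that marks much of the endometrial stroma, ran from 9.64 to 11.09 in severe cows with a median of 10.49. In mild cows it was 9.77, 8.91, 9.57, 9.77 and 9.41. Severe 5 and severe 6 were the highest cows, severe 1 lay inside the range of mild cows, and the highest mild cow was exceeded by 5 of 6 severe cows. The mean of PDGFRA was 10.45 ± 0.58 in the 6 severe cows and 9.49 ± 0.36 in the 5 mild cows (SD, as for all means below). The log2 difference was 0.97 ± 0.27 (SE), with a 95% interval from 0.39 to 1.55, or 1.96-fold (limma adjusted p = 0.289). In such whole-tissue RNA, more cells of a type and more RNA per cell cannot be told apart.

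PDGFRA had 3 probe sets, and the difference above belonged to the main one. The others, named A1 and S1 here after the ends of their identifiers, were dim on all 11 arrays. The A1 probe set averaged 5.23 ± 0.12 in severe cows and 5.06 ± 0.13 in mild cows, a difference of 0.17 ± 0.08 (SE, limma adjusted p = 0.412). The S1 probe set averaged 4.73 ± 0.48 in severe cows and 4.59 ± 0.45 in mild cows, a difference of 0.13 ± 0.25 (SE, limma adjusted p = 0.857). Its 95% interval, from -0.42 to 0.69, left out the 0.97 of the main probe set. Pooled within groups, the SD was 0.47 for S1 and 0.12 for A1, against 0.49 for the main one. Low signal alone therefore did not make the S1 probe set less variable, and why it differed less was not tested. After the group means were subtracted, the S1 probe set nevertheless went with the main probe set over the 11 cows (r = 0.77, permutation p = 0.0112, adjusted p = 0.0225 over 4 pairs of probe sets, rho = 0.81, p = 0.00713, adjusted p = 0.0143). Without mild 2 and severe 5, the cows farthest from the median of the S1 probe set, r was 0.58. For the A1 probe set neither relation passed. Its r was 0.50 with the main one (permutation p = 0.136, adjusted p = 0.136, rho = 0.40, p = 0.237). With S1 it was 0.51 (permutation p = 0.129, adjusted p = 0.136).

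PDGFRB, the receptor of pericytes and fibroblasts, lay just above the dim limit. It ran from 5.51 to 5.95 in severe cows with a median of 5.91, and was 5.78, 5.37, 5.60, 5.55 and 5.86 in mild cows. Severe cows other than severe 1 lay within a narrow band, 4 of them above the highest mild cow. Its mean was 5.84 ± 0.17 in severe cows, against 5.63 ± 0.20 in mild cows. The difference of PDGFRB was 0.21 ± 0.11 (SE), with a 95% interval from -0.02 to 0.45 (limma adjusted p = 0.440). Only 1 probe set measured this gene, and 2 arrays were dim for it.

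**Figure D2:**
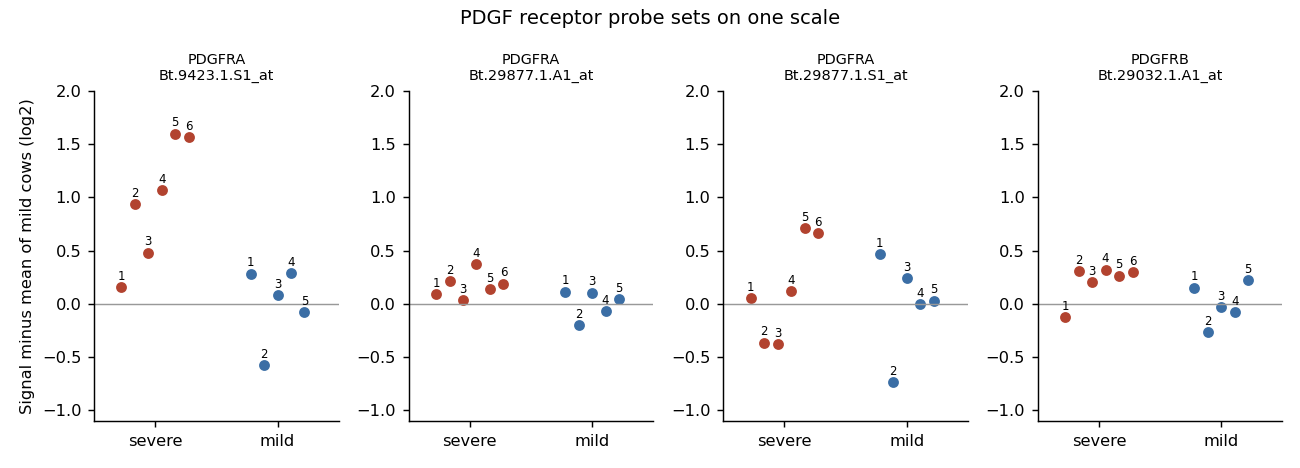
Signal minus the mean of mild cows (log2) for the 3 PDGFRA probe sets and the 1 PDGFRB probe set, all on 1 scale, severe cows (red) left of mild cows (blue), numbers naming the cows. The main PDGFRA probe set alone reaches above 1, in 3 severe cows, with a mean difference of 0.97 against 0.17, 0.13 and 0.21 in the other panels.

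Whether both receptors differed by the same amount was tested on the per-cow value of PDGFRA minus PDGFRB, which compares differences and not levels of separate probe sets. Its mean was 4.61 ± 0.46 in severe cows, against 3.86 ± 0.30 in mild cows. Severe 5 and severe 6, at 5.19 and 5.12, were the highest, and severe 1 and severe 3, at 4.14 and 4.13, lay below the highest mild cow at 4.22. The shift was 0.75 ± 0.24 (SE), with a 95% interval from 0.21 to 1.30 and an exact two-sided permutation p of 0.0130 over all splits of the cows, which allow 0.00216 at the least. The PDGFRB probe set lies close to the dim limit, where differences can be compressed, and the PDGFRA one lies far above it. Compression of the PDGFRB signal and a smaller PDGFRB difference therefore cannot be told apart. The pair was also known to differ from earlier results of these arrays. With the dim PDGFRA probe sets in place of the main one the shift was -0.04 (exact p = 0.621) and -0.08 (exact p = 0.764). With the mean of all 3 it was 0.21 (exact p = 0.223). With the neutrophil score described below as a covariate it was -0.018 (permutation p = 0.944). There the group labels were permuted while each cow kept its score, so this p is not exact.

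SDC2, syndecan-2, a transmembrane heparan sulfate proteoglycan that holds growth factors and matrix proteins at the cell surface, differed the other way. It ran from 8.50 to 9.92 in severe cows with a median of 8.90, and was 9.93, 10.40, 10.47, 10.26 and 9.25 in mild cows. Severe 6 was the lowest and severe 1 the highest severe cow, and 4 of 6 severe cows lay below mild 5, the lowest mild cow. The mean of SDC2 was 9.06 ± 0.55 in severe cows, against 10.06 ± 0.50 in mild cows, and the difference was -0.998 ± 0.285 (SE), with a 95% interval from -1.62 to -0.37 (limma adjusted p = 0.294). Its other probe set averaged 8.25 ± 0.30 in severe cows and 9.19 ± 0.53 in mild cows, a difference of -0.94 ± 0.23 (SE, limma adjusted p = 0.284). There 5 of 6 severe cows lay below the lowest mild cow, and the probe sets went together over the cows (r = 0.86 and rho = 0.81 with group means subtracted). SDC3, the 1 other syndecan with a named probe set, differed by -0.13 ± 0.07 (SE, limma adjusted p = 0.467), and was added after the values of SDC2 had been seen.

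PDPN, podoplanin, a mucin-like surface protein of fibroblasts, lymphatic endothelium and mesothelium that binds the platelet receptor CLEC-2, ran from 9.24 to 10.51 in severe cows with a median of 9.98. In mild cows it was 9.14, 9.14, 9.34, 9.52 and 9.89. Severe 3 lay among the mild cows, and mild 5, the highest mild cow, was exceeded by 4 of 6 severe cows. The mean of PDPN was 9.97 ± 0.44 in severe cows, against 9.40 ± 0.31 in mild cows, and the difference was 0.57 ± 0.21 (SE), with a 95% interval from 0.10 to 1.03, or 1.48-fold (limma adjusted p = 0.333). Markers of other cells that carry podoplanin were set beside it. Lymphatic endothelial markers had 4 measured of 6, with a median difference of 0.19 and scores from -0.24 to 0.45 in severe and from -0.57 to 0.42 in mild cows. A score is a cow's mean over the genes of a list after each gene's mean over all cows is subtracted. Of that list LYVE1 differed by 0.58 ± 0.47 (SE), CCL21 by 0.22 ± 0.20 and the dim FLT4 by 0.15 ± 0.12. Mesothelial markers had 4 measured of 7, with a median of 0.06, scores from -0.68 to 0.51 in severe and from -0.17 to 0.51 in mild cows, and MSLN at -0.65 ± 0.33, UPK3B at 0.15 ± 0.10 and UPK1B at 0.17 ± 0.54, and 0 genes of either list had an unadjusted p under 0.05. The part of these cells in the PDPN difference was not tested.

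**Figure D3:**
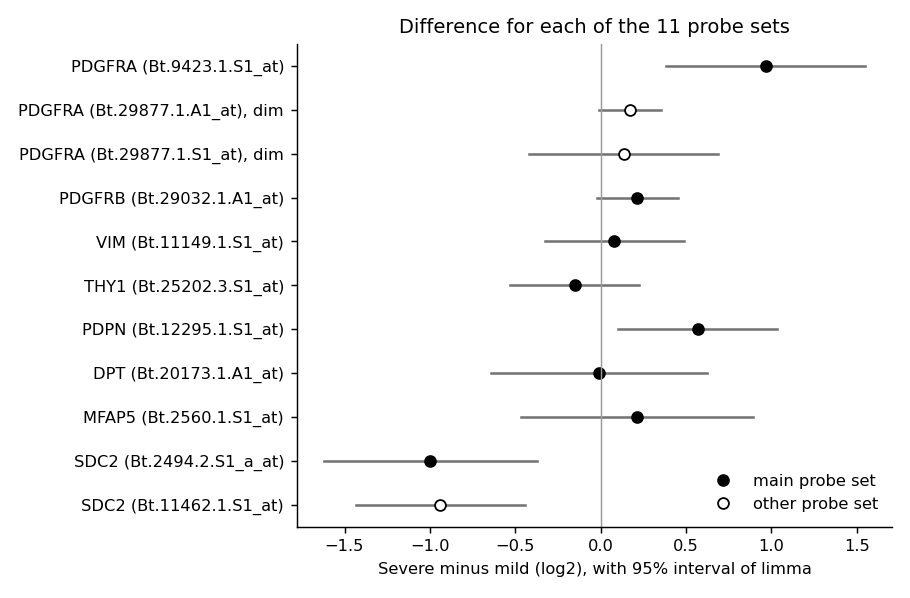
Severe minus mild difference (log2) with the 95% interval of limma for each of the 11 probe sets, filled circles for main and open circles for other probe sets. The intervals of the main PDGFRA probe set, PDPN and both SDC2 probe sets leave out 0, and the dim PDGFRA probe sets sit at 0.17 and 0.13.

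The remaining mesenchymal markers had intervals that include 0. VIM, vimentin, the intermediate filament of mesenchymal cells, ran from 12.44 to 13.22 in severe cows and from 12.25 to 13.14 in mild cows, a log2 difference of 0.08 with a 95% interval from -0.33 to 0.49 (limma adjusted p = 0.888). Vimentin is also abundant in leukocytes and endothelium. THY1, a glycosylphosphatidylinositol-anchored protein of fibroblasts, ran from 7.66 to 8.29 in severe cows and from 7.68 to 8.53 in mild cows, a difference of -0.15 with an interval from -0.53 to 0.23 (limma adjusted p = 0.744). For both genes the ranges of the groups nearly coincided.

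The matrix genes varied more between cows than between groups. DPT, dermatopontin, a small matrix protein that binds decorin and collagen, ran from 8.35 to 9.98 in severe cows and from 8.82 to 9.99 in mild cows. Its difference was -0.00956 with an interval from -0.64 to 0.62 (limma adjusted p = 0.992). MFAP5, a glycoprotein of fibrillin microfibrils, ran from 9.53 to 11.23 in severe cows and from 9.68 to 10.93 in mild cows, a difference of 0.22 with an interval from -0.46 to 0.89 (limma adjusted p = 0.804). Severe 6 had the lowest DPT and the highest MFAP5 of all 11 cows. The pooled SD within groups was 0.54 for DPT and 0.58 for MFAP5, against 0.53 for SDC2, 0.49 for PDGFRA and 0.34 for VIM. These matrix genes had the widest intervals of the 8 genes, with SDC2 close behind.

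Among the 8 genes, SDC2 ran opposite to PDGFRB within the groups, while its relation to PDGFRA did not pass the adjustment and varied with single cows. With group means subtracted, r over the 11 cows was -0.83 for PDGFRB with SDC2 (permutation p = 0.00126, adjusted p = 0.0353 over 28 pairs, rho = -0.75, p = 0.00873, adjusted p = 0.122). It was -0.68 for PDGFRA with SDC2 (permutation p = 0.0377, adjusted p = 0.196, rho = -0.57, p = 0.10, adjusted p = 0.350) and -0.74 for PDPN with SDC2 (permutation p = 0.0179, adjusted p = 0.196, rho = -0.79, p = 0.00796, adjusted p = 0.122). Without the cows farthest from the median of SDC2, severe 6 and mild 3, these were -0.87, -0.67 and -0.69. The value of PDGFRA with SDC2 ran from -0.87 without mild 5 to -0.50 without severe 1. Mild 5, with the lowest SDC2 of the mild cows at 9.25, had a PDGFRA of 9.41, below the mean of mild cows. That of PDGFRB with SDC2 stayed between -0.87 and -0.73 with 1 cow left out. PDGFRA and PDGFRB had r = 0.65 (permutation p = 0.0254, adjusted p = 0.196, rho = 0.35, p = 0.294, adjusted p = 0.485), but 0.01 without mild 2 and severe 1, so that relation rests on those cows. The pair of PDGFRB and SDC2 was the 1 of 28 with an adjusted p under 0.05 by Pearson's r, and 0 were by Spearman's rho.

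**Figure D4:**
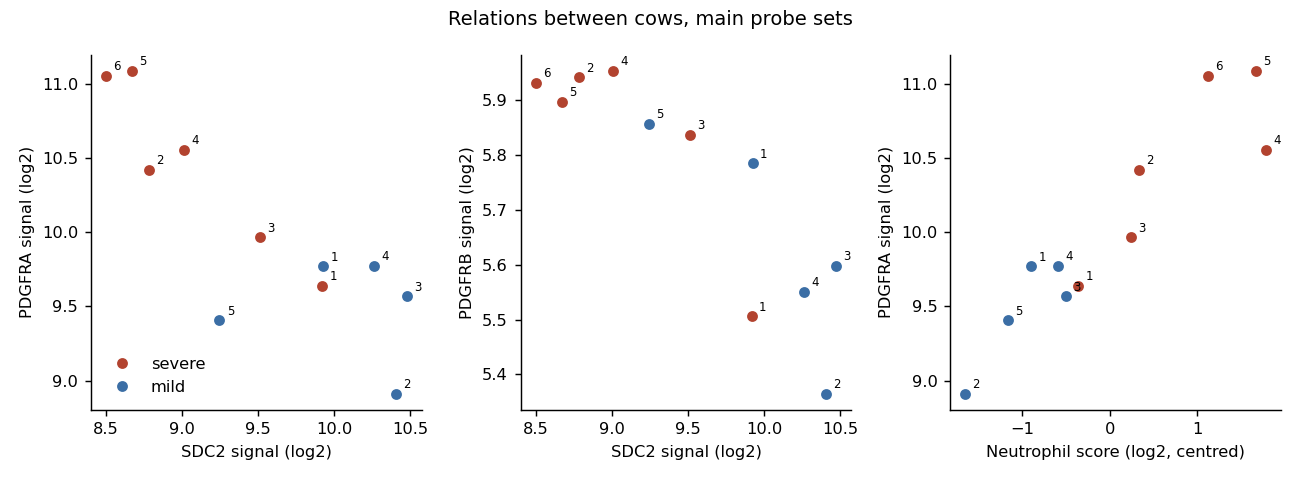
Each point is 1 cow, severe in red and mild in blue, numbers naming the cows: PDGFRA and PDGFRB signal (log2) against SDC2 signal (log2), and PDGFRA signal against the neutrophil score (log2, centred over all cows). PDGFRB was higher in cows with lower SDC2 (r = -0.83 after group means were subtracted), PDGFRA less regularly (r = -0.68), with mild 5 below the mean of mild cows in both PDGFRA and SDC2. PDGFRA had r = 0.84 with the neutrophil score, which did not pass the adjustment (permutation adjusted p = 0.125).

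The genes whose pattern over the 11 cows was most like PDGFRA, with group means subtracted, were C1R, a complement protease, at r = 0.94, TARS1, threonyl-tRNA synthetase, at 0.94, STAT3, a transcription factor of cytokine signalling, at 0.94, IL1R1, the interleukin 1 receptor, at 0.93 and DTX2 at 0.93. They were taken from 7134 genes that were not dim. Their own differences between severe and mild cows were 1.08 ± 0.32 (SE) for C1R, 0.29 ± 0.17 for TARS1, 0.08 ± 0.21 for STAT3, 0.71 ± 0.32 for IL1R1 and 0.28 ± 0.10 for DTX2. For PDGFRB they were EIF4G3 at r = 0.92, CD302 at 0.91, DTX1 at 0.91, RIPK1, a kinase of cell death and inflammatory signalling, at 0.91 and MGP, matrix Gla protein, at 0.90. Their differences were -0.25 ± 0.08 (SE) for EIF4G3, 0.54 ± 0.16 for CD302, 0.31 ± 0.26 for DTX1, 0.35 ± 0.12 for RIPK1 and 0.45 ± 0.22 for MGP. By Spearman's rho 0 of the 5 genes for PDGFRA and 1 of the 5 for PDGFRB stayed among the first 5, so these names depend on the measure.

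Most leukocyte markers were higher in severe cows, although 0 passed the adjusted threshold. Of 13 neutrophil markers 10 were measured, 8 with a positive and 2 with a negative difference, and 4 of the 10 were dim. Of the 10, 7 had an unadjusted limma p under 0.05, all of them higher, beside 15.9% of the 9155 named genes. The median difference over the list was 2.06, with S100A8, S100A12 and CXCR1 at log2 differences of 3.24, 3.04 and 2.67. The neutrophil score ran from -0.36 to 1.79 in severe cows and from -1.65 to -0.50 in mild cows, without overlap. Of all single probe sets 1.07% had no overlap. The list was chosen with earlier results of these data known, so this separation is no independent result. The granule genes MPO and ELANE were dim, at means of 4.53 and 3.82 over all cows, and had the negative differences, at -0.16 and -0.04. Within the groups PDGFRA had r = 0.84 with the neutrophil score (permutation p = 0.00695, adjusted p = 0.125 over 18 relations, rho = 0.81, p = 0.0109, adjusted p = 0.196). This relation did not pass the adjustment. Its r was 0.92 without severe 4 and severe 5 and 0.75 without severe 1. With the macrophage, T and NK cell, epithelial, smooth muscle and endothelial scores described below, PDGFRA had r = 0.66, 0.62, -0.60, -0.21 and 0.44. The permutation adjusted p of the first 3 was 0.169. With the neutrophil score as a covariate the PDGFRA difference was -0.05 (limma adjusted p = 0.992), that of PDGFRB -0.03, that of PDPN 0.15 and that of SDC2 -0.42. Severe and mild cows shared no part of the range of this score. Such a fit therefore compares them only by extending the relation within the groups beyond the range of each.

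Macrophage markers had 9 measured of 12, of which 4 had an unadjusted p under 0.05, all higher, with a median difference of 0.83, among them C1QA, C1QB and C1QC at 1.20, 1.20 and 1.14. Their score ran from -0.82 to 1.32 in severe cows and from -1.17 to 0.20 in mild cows. SDC2 had r = -0.71 with it (permutation p = 0.0242, adjusted p = 0.169, rho = -0.69, p = 0.0412, adjusted p = 0.247) and -0.79 without severe 4 and severe 5. T and NK cell markers had 15 measured of 15 and 11 with an unadjusted p under 0.05, all higher. Their median difference was 0.73, with ZAP70, PRF1 and CD3G at 1.10, 0.99 and 1.24. Their score ran from -0.27 to 0.85 in severe cows and from -0.76 to 0.04 in mild cows. The counts of both lists again stand beside 15.9% of the 9155 named genes. With the macrophage or the T and NK cell score as a covariate, PDGFRA was at 0.58 and 0.48, SDC2 at -0.55 and -0.45, and PDPN at 0.26 and 0.24. The part of leukocytes in the differences of PDGFRA, PDPN and SDC2 was not tested.

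Markers of epithelium and smooth muscle had medians near 0, over genes that went both ways. Epithelial markers, 13 measured of 17, had a median difference of -0.04 and scores from -0.95 to 0.40 in severe and from -0.32 to 0.51 in mild cows, with CLDN10 at -0.997, CLDN7 at -0.42 and CLDN4 at 0.64. Smooth muscle markers, 9 measured of 11, had a median of -0.14 and scores from -0.78 to 0.35 in severe and from -0.49 to 0.47 in mild cows, with TAGLN at -0.44, ACTA2 at -0.28 and DES at -0.39. Severe 6, with the lowest smooth muscle score, also had the lowest SDC2, and SDC2 had r = 0.69 with that score (permutation p = 0.0297, adjusted p = 0.169, rho = 0.64, p = 0.0589, adjusted p = 0.265), or 0.34 without severe 6 and mild 5. With the epithelial or the smooth muscle score as a covariate PDGFRA was at 0.89 and 0.93 and SDC2 at -0.95 and -0.86, close to the values without it.

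Pericyte markers, the other cells that carry PDGFRB, had 5 measured of 10 with a median difference of -0.01 and scores from -0.09 to 0.15 in severe and from -0.11 to 0.22 in mild cows. CSPG4, a proteoglycan of pericytes, was at -0.26 ± 0.09 (SE, limma adjusted p = 0.310), KCNJ8 at 0.35 ± 0.18 and RGS5 at -0.27 ± 0.25. Endothelial markers, 12 measured of 14, had a median of 0.10 and scores from -0.14 to 0.22 in severe and from -0.24 to 0.10 in mild cows, with CDH5 at 0.24 and CLDN5 at 0.36 and the dim KDR at -0.24. Platelet markers, of cells that store PDGF, had 4 measured of 10 with a median of 0.03 and scores from -0.11 to 0.07 in severe and from -0.03 to 0.08 in mild cows, ITGB3 being at -0.28, TUBB1 at 0.08 and the dim PF4 at 0.06.

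Other genes of the PDGF pathway had differences of both signs. Of 44 signalling genes 30 were measured, 18 with a positive and 12 with a negative difference and a median of 0.05, and 4 had an unadjusted p under 0.05, 2 in each direction (0 adjusted), where 15.9% of the 9155 named genes reached that level. EGR1 and FOS, immediate early transcription factors that many growth factors and cytokines switch on, were at 0.87 ± 0.26 and 0.85 ± 0.32 (SE, limma adjusted p = 0.306 and 0.334). PIK3R1, a regulatory subunit of phosphatidylinositol 3-kinase, which docks on activated receptors, was at -0.97 ± 0.41 (limma adjusted p = 0.368). Of 9 genes around the ligands 6 were measured, with a median of 0.32, and 2 had an unadjusted p under 0.05. PLAU, urokinase, which can activate PDGF-D, was at 1.20 ± 0.38 (limma adjusted p = 0.307), FURIN, a protease that matures PDGF-A and PDGF-B, at 0.22 ± 0.08, and NRP1, neuropilin-1, at 0.42 ± 0.20. PDGFRL, a receptor-like gene without a kinase, was at 0.02 ± 0.26.

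Other stromal fibroblast markers also had differences of both signs. Of 33 listed 25 were measured, 13 with a positive and 12 with a negative difference and a median of 0.05, and 6 had an unadjusted p under 0.05, 5 of them higher (0 adjusted), again beside 15.9% of the named genes. FAP, fibroblast activation protein, a surface protease of remodelling stroma, averaged 10.61 ± 0.40 in severe cows and 9.79 ± 0.48 in mild cows, a difference of 0.81 ± 0.24 (SE, limma adjusted p = 0.298). S100A4, a calcium-binding protein of fibroblasts that leukocytes also make, was at 0.69 ± 0.23 (limma adjusted p = 0.310). HOXA10, a homeobox factor of uterine identity, averaged 9.06 ± 0.37 in severe cows and 9.77 ± 0.37 in mild cows, a difference of -0.71 ± 0.20 (limma adjusted p = 0.294). The main collagens of the stroma had small differences, COL1A1 being at -0.15, COL1A2 at -0.13 and COL3A1 at -0.03.

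**Figure D5:**
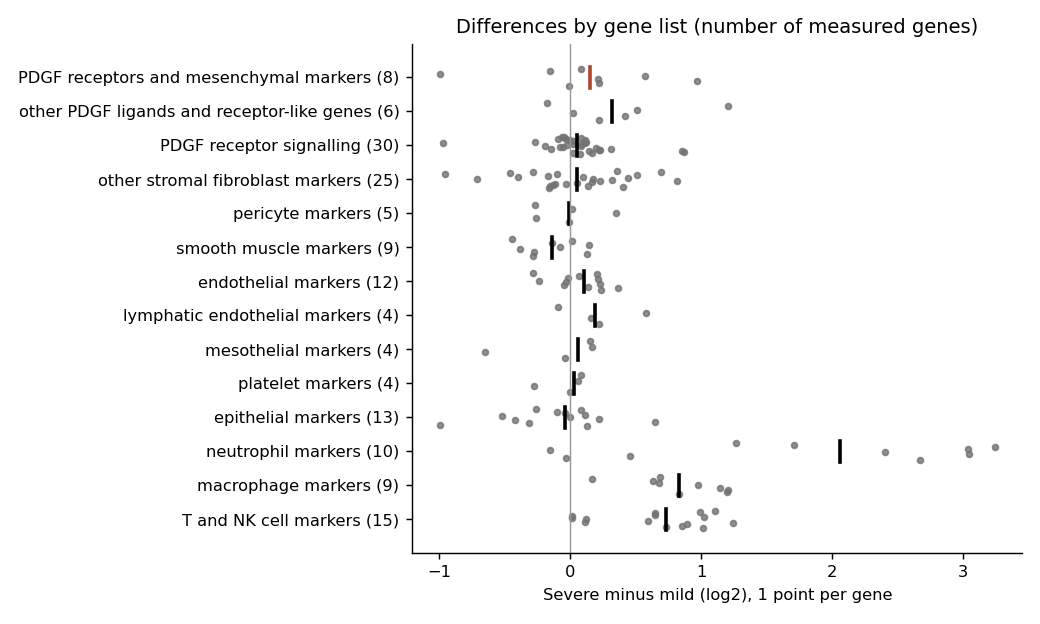
Severe minus mild difference (log2) of every measured gene by list, 1 point per gene, with the median as a vertical bar and the number of measured genes in brackets. The PDGF receptors and mesenchymal markers spread to both sides of 0 around a median of 0.15, the medians of the stromal, pericyte and muscle lists are 0.05, -0.01 and -0.14, with single stromal genes from -0.96 to 0.81, and neutrophil markers reach 3.24.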

How the data were processed

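RNA of 11 endometrial samples was measured on 1 Affymetrix bovine array each. The authors deposited RMA values, as the submitters' processing notes record. These are log2 signals to judge by their range in the deposited table (2.63 to 14.6), and the RMA version is not given in the sources used here. A shift shared by every transcript is removed by RMA and would go unseen.

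Of 24128 probe sets 112 controls were left out. The platform annotation gave 13292 of the others 1 symbol, 86 several and 10638 none. Symbols were checked through Entrez numbers against RefSeq names of ARS-UCD2.0 (13263 matched, 0 renamed). Severe was compared with mild with limma 3.58.1 in R 4.3.3 (lmFit, eBayes, two-sided), after a test on simulated data. PDGFRA minus PDGFRB was tested by exact permutation, and correlations used 100000 resamples of cows within groups. Python 3.11.15 and matplotlib 3.10.9 drew the figures.

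The genes and lists were chosen with earlier results of these data known. Named genes are all measured members, the 3 with the smallest p in each list and the 5 most like each receptor. Others (collagens, DCN, LUM, EPCAM, KRT18, KRT8, MPO, ELANE, PDGFRL, SDC3, KIT, CSF1R) were named after their values were seen. The labels do not say which cows shared a block, and replicate numbers only name cows. Labels of 1 mild cow carry 2 different animal numbers but the same group.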

Additional observations from a re-analysis of the deposited data

Results flagged for a closer look

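In PDGFRB, severe 1 stood apart from the other severe cows at 5.51, the next lowest being 5.84, which makes 0.739 of the range of the group. Of 24 groups of cows looked at in this way, 1 was marked, and chance marks about 1 in 20. Without severe 1 the PDGFRB difference was 0.28 (limma adjusted p = 0.213).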

How the results depend on the processing

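The number of cows limits the precision, and 2 of 3 PDGFRA probe sets were dim. Of all probe sets, 0 passed the adjusted threshold, 3085 had an unadjusted p under 0.05, and with 1 cow left out the count of adjusted calls ran from 0 to 16 (16 without severe 1, 2 without severe 3). Of the 8 genes 3 had an unadjusted p under 0.05, against 0 with the neutrophil or the T and NK cell score as a covariate and 1 with the macrophage score, the last 2 scores added after seeing the data. With 1 cow left out that count ran from 2 to 4, without mild 2 and severe 5 it was 2, and PDGFRA lay between 0.82 and 1.13 and SDC2 between -1.20 and -0.88 with 1 cow left out. No adjusted call arose for the 8 genes under any setting run. The neutrophil covariate also left 626 higher and 695 lower probe sets with an unadjusted p under 0.05, against 1673 and 1412 without it. For the T and NK cell and the macrophage score such counts over all probe sets were not made. Whether the fall among the 8 genes exceeds that of the array is thus not known there.

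The shift of PDGFRA minus PDGFRB was 0.64 to 0.85 with 1 cow left out and 0.56 without mild 2 and severe 5 (exact p = 0.0476). It was 0.21 with the mean of the PDGFRA probe sets, -0.041 and -0.079 with the dim ones and -0.018 with the neutrophil covariate (permutation p = 0.944). Signs turned with that covariate for PDGFRA (-0.048), PDGFRB (-0.030), VIM (-0.045), THY1 (0.035), DPT (0.13) and MFAP5 (-0.31). VIM was at -0.012 after a second quantile normalization, at -0.072 and -0.13 with the T and NK cell and the macrophage score and from -0.051 to 0.17 with 1 cow left out. DPT was at 0.11 with the smooth muscle score, at 0.013 with the 3' minus 5' difference, at 0.042 with the macrophage score and from -0.15 to 0.19 with 1 cow left out. MFAP5 was at -0.063 with the macrophage score. The causes of these changes were not tested. Of 299 list medians recomputed, 17 moved by more than the SD of the list score between cows. Many of these moves came with the neutrophil covariate. There the stromal fibroblast median went from 0.05 to -0.22, the lymphatic one from 0.19 to -0.14 and that of genes around the ligands from 0.32 to -0.12. Signalling, platelet and the leukocyte medians moved as well, while the pericyte, smooth muscle, endothelial, mesothelial and epithelial medians did not.

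The planned differences between ligands and receptors were not run, as PDGFA and PDGFB had no probe set of their own. No paired analysis was possible because the labels give no number that links cows of the groups.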

Other observations

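In the RefSeq gene order of cattle each PDGF receptor gene lies beside a gene of another receptor of the same class, and these neighbours were looked at after the values of the receptors had been seen. KIT, the stem cell factor receptor of mast cells, which lies next to PDGFRA, averaged 7.04 ± 0.33 in severe cows and 7.26 ± 0.23 in mild cows (log2 difference -0.22 ± 0.16 SE, limma adjusted p = 0.589). CSF1R, the macrophage growth factor receptor, which lies next to PDGFRB, averaged 8.71 ± 0.77 in severe cows and 8.07 ± 0.65 in mild cows (log2 difference 0.63 ± 0.39 SE, limma adjusted p = 0.513).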
